A study of Mus musculus with 48 samples.

Results

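Microdissected colon epithelium was compared with the intact colon wall of healthy C57BL/6J mice aged 12 weeks, on 11 of the 48 dual-channel microarrays of the series. The 11 samples were chosen by their labels: 5 epithelium samples (replicates 1 to 5) and 6 intact colon samples (replicates 1 to 6), and a second array of epithelium replicate 1 was not used. All were male wild-type mice without the Il10 deletion carried by the other strain, and all of them, although controls, were housed conventionally, fed an AIN76A diet and inoculated with Enterococcus strains and complex intestinal flora from other C57BL/6J mice. Intact colon was full-thickness proximal colon, while the epithelium was cut by laser from frozen sections of a neighbouring piece of proximal colon from which fat had been trimmed, and the study's methods state that lamina propria was left out as far as could be, although a section of a non-inflamed mouse is shown from which it was taken along. Both tissues were harvested from each mouse, but the labels do not tie a sample of one tissue to a sample of the other, so the samples were treated as independent.

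Tissue cannot be told apart from several technical differences. Intact colon RNA was extracted with Trizol and RNeasy columns and 500 ng was amplified, whereas epithelial RNA was extracted with the PicoPure kit and 30 ng went through 2 rounds of amplification with another kit. The tissues were hybridised as separate array sets, each spread over 6 slides and read with its own image software version and array annotation, and each of the 11 arrays lay on a slide of its own. The signal floor also differed, as described below. Every difference between the tissues reported here therefore also holds the difference between array sets.

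The colon wall is built in layers. A single sheet of epithelium, folded into crypts, faces the lumen and holds absorptive colonocytes that take up water, sodium and short-chain fatty acids, goblet cells that secrete mucus, hormone-secreting enteroendocrine cells, chemosensory tuft cells and the dividing stem and progenitor cells at the crypt base. Beneath it lie the lamina propria with fibroblasts, vessels and leukocytes, the submucosa, the smooth muscle coats with the neurons and glia of the enteric nervous system and the interstitial cells of Cajal that pace contraction, and on the outside the mesothelium and adjoining fat. In bulk samples such as these, fewer cells of a type and less RNA per cell cannot be told apart.

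Values are log2 ratios of the mouse sample over a common reference, a pool of RNA from intestine, kidney and liver of adult Swiss mice plus fetus, so 0 means the same signal as the pool and 1 means 2-fold more. A difference is the mean ratio of the epithelium minus that of intact colon, and a gene was called when the fold change exceeded 1.5 and the adjusted p of a limma fit over all tested probes was under 0.05. A gene is described as measured in a tissue when its spot was well above background in the sample channel on at least 50% of that tissue's arrays. Most calls that rescaling, array weights or leaving out an array ended or added are given beside the gene or with the other settings at the end. Levels are not compared between genes, because each probe has its own response.

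The epithelial arrays had a high floor. Negative control spots read 47 to 148.5 intensity units in the sample channel of the intact arrays and 1023.5 to 1465 units on the epithelial arrays. Of all spots, 49.1 to 75.6% were well above background on the intact arrays and 29.9 to 38.5% on the epithelial ones. The reference pool was shared but did not read alike: over probes measured in both tissues the mean log2 Cy5 signal correlated at r = 0.81 between the array sets, and 32.6% of these probes differed by more than 2-fold in that channel. Arrays of the same tissue correlated at r = 0.72 to 0.94 (epithelium) and 0.81 to 0.96 (intact colon) over 12733 probes, and arrays of different tissues at 0.51 to 0.65. The epithelial arrays were not uniform: replicates 3 and 4 were the most alike, followed by replicates 1 and 2 at r = 0.93, and the lowest correlation, 0.72, was between replicates 1 and 3.

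Which cell type markers were measured differed with the tissue. Among the list members on the arrays, tested or not, epithelium measured 19 of 20 epithelial cell genes, 17 of 18 absorptive colonocyte genes, 15 of 20 smooth muscle genes, 2 of 18 enteric neuron genes and 0 of 5 genes for interstitial cells of Cajal. Intact colon measured 20 of 20, 18 of 18, 20 of 20, 16 of 18 and 5 of 5. A gene was tested only if at least 1 of the tissues measured it, and of the 19180 genes tested 54.9% were measured in epithelium and 98.8% in intact colon, with 229 measured in epithelium only. Shares of tested genes measured in intact colon therefore lie near 100% by the construction of the filter and say nothing of the tissue.

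**Figure D1:**
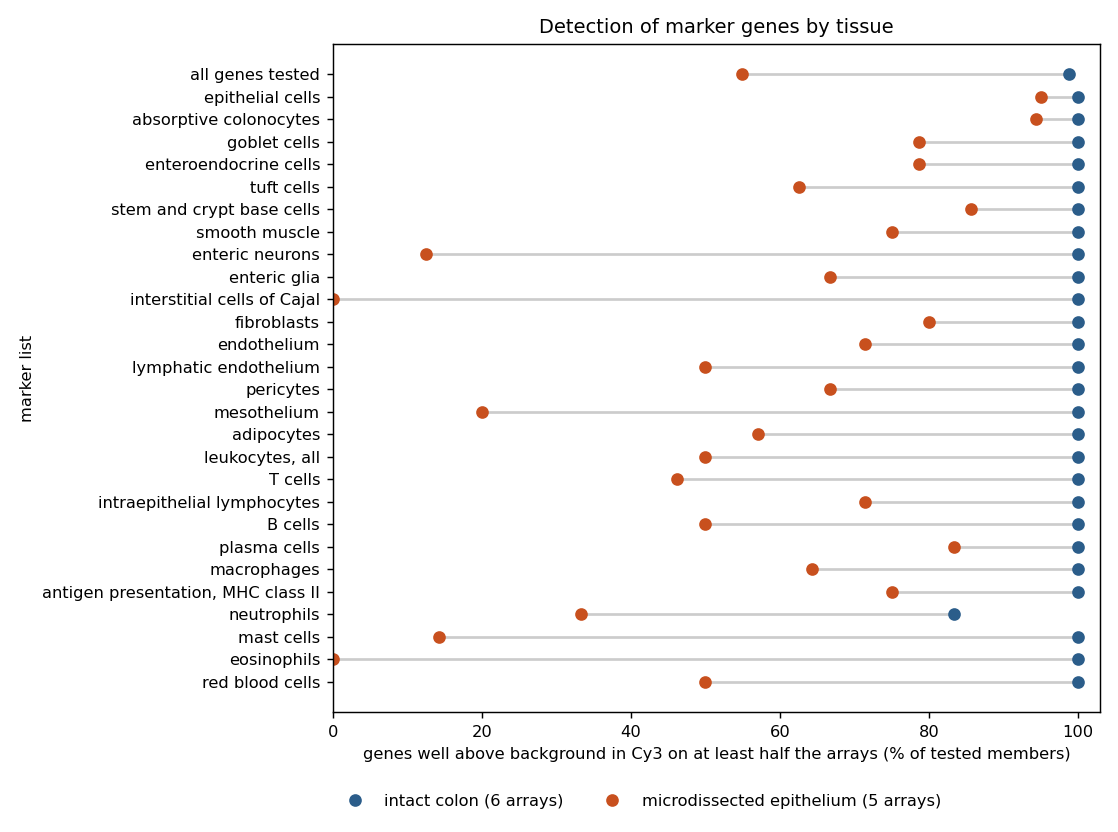
Percent of the tested members of each cell type marker list (y axis) that were measured in intact colon and in epithelium, with all tested genes for comparison; measured means well above background on at least 50% of the tissue's arrays. The intact shares lie near 100% because testing required 1 of the tissues to measure the gene. The epithelial shares, over members that mostly passed through intact colon, ranged from 0% of the lists for interstitial cells of Cajal and eosinophils and 12.5% of the enteric neuron list to 95% of the epithelial cell list.

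Of the 19180 genes tested, 5292 were called (27.6%), 2342 higher in epithelium (12.2%) and 2950 lower (15.4%), with a median difference of -0.05 over all genes. Among the 10308 genes measured in both tissues, 1415 were called higher (13.7%) and 1572 lower (15.3%), and the samples of the tissues did not overlap for 940 and 931 of these. Differences above 4-fold were seen for 52 of the genes higher and 98 of the genes lower in epithelium. A further 8643 genes were measured in intact colon only, of which 1378 were called lower and 868 higher in epithelium. Those 868 need separate reading. Their ratio in epithelium had a median of -0.14 and in intact colon of -1.22, and for 517 of them (59.6%) the reference channel was not well above background on the epithelial arrays either, so that such a "higher" ratio sets an intact colon ratio below the pool against spots near the floor. Genes that were not measured in epithelium are marked as such below, in either direction, because their difference is not a measured size. Where no epithelial array was well above background, a bound from the Cy3 channel is added for genes called in the bound's direction if it exceeds 1. Such a bound holds for the Cy3 signals only. It includes any difference between the array sets that the reference channel would have offset, so it can exceed the fold of the ratio and is no bound on the difference between tissues. Requiring the tissue with the higher ratio to be measured, a filter chosen after seeing the data, left 1488 genes higher and 2981 lower, so that 33.3% of the calls were higher against 44.3% otherwise. Since fewer genes were measured in epithelium, this filter removes mostly higher calls by its construction.

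Smooth muscle genes were lower in epithelium as a list. Of 20 smooth muscle genes tested, 14 were lower in epithelium (12 of them measured in both tissues), 3 were called higher and the median difference was -1.21, against -0.05 over all genes. Over all genes 15.4% were lower and 12.2% higher. Leaving out any one array, or rescaling the values (recomputed or median spot intensities, normexp background correction, the image software's processed signals, or the Cy3 channel alone), left 14 to 16 of them lower and 1 to 3 higher. Genes named from a list, other than its first 3 tested members, were chosen after their values were seen.

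Of these, 3 genes are shown with their promoters, because the contractile genes are a textbook target of serum response factor, which binds the CArG box, a run of A and T bases between CC and GG. The windows are taken from the RefSeq table of build GRCm38.p6 and cover 300 bases each, from before to just after the transcription start, read 5′ to 3′ on the gene's strand. Capitals mark matches to a CArG box with at most 1 G or C in its core.
Acta2, chr19:34255324-34255623, minus strand: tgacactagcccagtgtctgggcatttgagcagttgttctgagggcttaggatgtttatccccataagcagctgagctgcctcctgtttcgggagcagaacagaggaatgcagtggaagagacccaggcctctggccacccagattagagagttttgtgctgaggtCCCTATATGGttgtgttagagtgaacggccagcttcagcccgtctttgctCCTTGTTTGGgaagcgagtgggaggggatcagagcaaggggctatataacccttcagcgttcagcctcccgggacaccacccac
Myl9, chr2:156775214-156775513, plus strand: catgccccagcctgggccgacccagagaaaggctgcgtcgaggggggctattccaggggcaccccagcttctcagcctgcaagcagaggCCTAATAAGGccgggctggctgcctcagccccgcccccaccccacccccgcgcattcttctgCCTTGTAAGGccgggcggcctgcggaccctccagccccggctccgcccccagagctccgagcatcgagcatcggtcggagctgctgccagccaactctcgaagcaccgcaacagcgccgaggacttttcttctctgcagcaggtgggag
Cnn1, chr9:22099003-22099302, plus strand: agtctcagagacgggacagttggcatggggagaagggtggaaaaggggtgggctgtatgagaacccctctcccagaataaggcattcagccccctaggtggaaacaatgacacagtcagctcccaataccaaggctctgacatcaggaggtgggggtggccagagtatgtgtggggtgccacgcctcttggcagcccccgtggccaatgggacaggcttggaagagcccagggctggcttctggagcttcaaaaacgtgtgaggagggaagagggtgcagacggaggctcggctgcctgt

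The matches in Acta2 began 84 and 34 bases before the start and those in Myl9 161 and 99 bases before it, while the Cnn1 window held none. On either strand, 3 of the 10 lower muscle genes with a window in the table had such a match (Acta2, Myl9 and Synm, 30%), against 11.3% of the 27025 genes with a window. The windows describe the genes and say nothing of their regulation in these samples.

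Cnn1, which encodes calponin of smooth muscle thin filaments, had ratios of -0.06, -2.75, -2.19, -1.96 and -2.25 in epithelium replicates 1 to 5 and from 1.38 to 2.49 in intact colon with a median of 2.20. The groups did not overlap, and the gene was 15.2-fold lower in epithelium (difference -3.92, SE 0.38, adjusted p = 6.63e-06). Tagln, the actin-binding protein transgelin, read -0.11, -1.57, -0.43, -0.45 and -2.08 against 1.96 to 2.56 with a median of 2.16 (difference -3.16, SE 0.31, adjusted p = 6.4e-06). Replicate 1 was the highest epithelial sample for both genes. Myl9, a myosin regulatory light chain, read 0.48, -1.38, -0.84, -1.04 and -1.20 against 1.67 to 2.24 with a median of 1.98 (difference -2.77, SE 0.27, adjusted p = 6.83e-06). Acta2, smooth muscle actin, read 0.45, -1.37, -0.66, -0.80 and -1.67 against 1.38 to 2.05 with a median of 1.78 (difference -2.52, SE 0.30, adjusted p = 3.42e-05), and its 5 probes ranged from -2.74 to 1.13. Again replicate 1 lay above the other epithelial samples and below every intact sample. Also lower were Pgm5 of muscle adhesion sites (-2.67), the intermediate filament gene Synm (-2.34, measured on 1 of 5 epithelial arrays), the tropomyosin gene Tpm2 (-2.05) and Myh11, the smooth muscle myosin heavy chain (-1.09, adjusted p = 0.00312), whose groups overlapped and whose call was lost with all 8 groups of the series in the fit (adjusted p = 0.103).

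The muscle genes called higher were of the floor kind, except one. Des, the muscle intermediate filament desmin, was measured on none of the 5 epithelial arrays, where its ratios lay between -0.47 and -0.11, and on 6 of 6 intact arrays at -2.46 to -0.49 (difference 0.84, adjusted p = 0.0276). The call ended without epithelium replicate 1 or 2 (0.81 for each) or intact replicate 6 (0.57), and the sign turned with the Cy3 channel alone (-3.83) and the image software's processed signals (-0.18). On the Cy3 channel Des was at least 14.2-fold higher in intact colon, with a Cy5 reference difference between the epithelial and the intact arrays of -4.69 (log2). Hspb6, a small heat shock protein, was measured on 1 epithelial array (difference 1.32). Synpo2 was measured on all arrays (1.15, adjusted p = 0.0275) but lost its call without epithelium replicate 3, 4 or 5 or intact replicate 5 (1.03, 0.86, 1.06 and 1.05), and its 4 probes ranged from -2.41 to 1.23. Actg2, enteric smooth muscle actin, differed by -0.31 with SE 0.18 and was not called (adjusted p = 0.166), but was called lower with the Cy3 channel alone (-4.31).

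Genes of the enteric nervous system, which lies within and between the muscle coats, were lower too. Of 16 neuronal genes tested, 12 were lower in epithelium and 1 was called higher, against 15.4% and 12.2% over all genes, with a median difference of -1.21, and these counts were the same without any one array. Under rescaling 10 to 13 were lower, with medians of -2.85 to -1.02. Of the 12, however, only 1 was measured in both tissues, and the others passed the filter through intact colon, where they are high. Uchl1, a neuronal deubiquitinase, read -0.80, -0.37, -1.20, -1.94 and -2.49 in epithelium and 1.41 to 2.26 in intact colon with a median of 1.80 (difference -3.18, SE 0.32, adjusted p = 8.32e-06). Elavl4, a neuronal RNA-binding protein, read 0.07, 0.19, -0.50, -0.59 and -0.45 against 1.44 to 3.31 with a median of 2.33 (difference -2.56, adjusted p = 4.69e-05, with a second probe at -0.28), and was measured on 1 of 5 epithelial arrays. Neither gene's groups overlapped. Snap25, of the synaptic vesicle fusion machinery, read 0.03, -0.03, -0.04, 0.13 and 0.34 against 1.72 to 3.02 with a median of 2.64 (difference -2.51, adjusted p = 1.27e-06). It was measured on no epithelial array and was at least 4.69-fold higher in intact colon on the Cy3 channel.

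Among other members of the list, the difference was -2.65 for Nos1, the neuronal nitric oxide synthase of inhibitory motor neurons, -2.63 for Vip, vasoactive intestinal peptide, and -2.29 for Tac1, the substance P precursor. None of these was measured in epithelium, where 1, 2 and 0 of 5 arrays were well above background, and Tac1 was at least 4.87-fold lower there on the Cy3 channel. The neurofilament gene Nefl (-2.09) and Stmn2, a regulator of neurite microtubules (-1.41), were measured on no epithelial array and were at least 2.83-fold and 2.50-fold lower on that channel. Tubb3, neuronal tubulin, was measured in both tissues and was not called (-0.16, SE 0.11, adjusted p = 0.282). Hand2, a transcription factor of the enteric nervous system, carried the only neuronal call in the other direction (1.87), but it was not measured in epithelium and its intact ratios lay at -2.39 to -1.53. With the Cy3 channel alone its sign turned (-0.48).

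**Figure D2:**
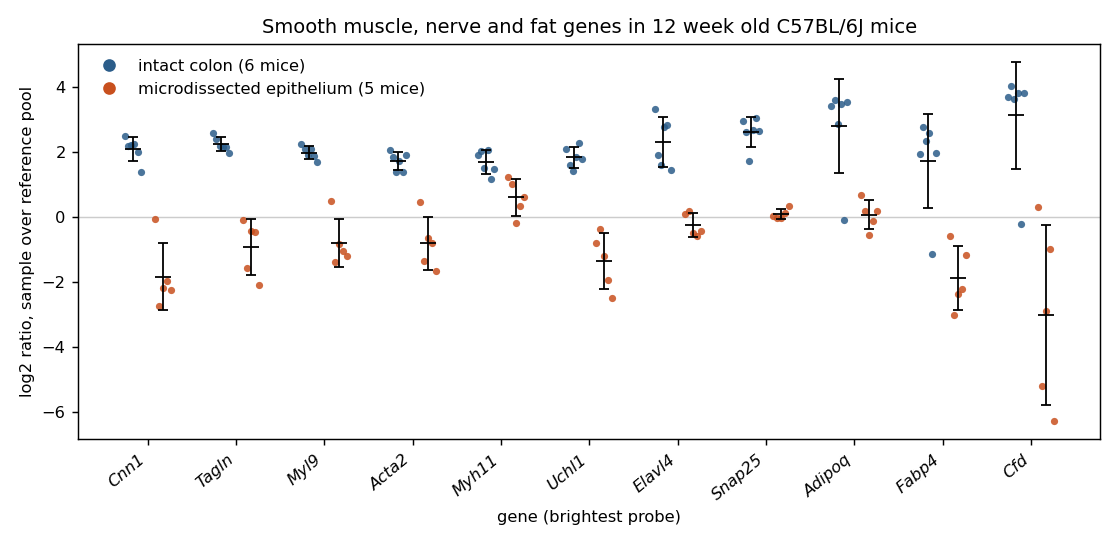
Log2 ratio of sample over reference pool (y axis) for smooth muscle, neuronal and adipocyte genes (x axis) in intact colon of 6 mice (blue) and epithelium of 5 mice (orange); points are arrays and bars the mean ± SD. The muscle and neuronal genes do not overlap between tissues, with the exception of Myh11, while for the adipocyte genes 1 intact sample lies at the level of the epithelium.

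Of 9 glial genes, 4 were lower and 1 higher (over all genes 12.2% higher and 15.4% lower), with a median of -0.49 that became 0.41 with the Cy3 channel alone and -2.13 with the image software's processed signals. Without any one array 3 or 4 were lower and at most 1 higher. S100b, a glial calcium-binding protein, differed by -1.77 at 12 weeks, but its reference channel was 5.62 log2 units higher on the epithelial arrays, its sign turned with the Cy3 channel alone (3.92), and at 6 weeks the difference was -0.16 (adjusted p = 0.849), or -0.96 (adjusted p = 0.0121) without epithelium replicate 1 of that age. Gfap, the glial filament protein, was well above background on 3 of 6 intact arrays and no epithelial array and lost its call (-0.65) without epithelium replicate 2 or intact replicate 1, 4 or 5 (-0.56 to -0.63). Of 5 genes for interstitial cells of Cajal, 3 were lower: Etv1, a transcription factor they need (-1.39), Kit, their receptor tyrosine kinase (-0.91), and Gucy1a1, a nitric oxide receptor subunit (-0.90). Ano1, the pacemaker chloride channel, differed by -0.29 with SE 0.19 and was not called, but was called lower with the Cy3 channel alone (-1.26), the image software's processed signals (-2.70) and normexp background correction (-0.95). No gene of that list was measured in epithelium, and the Cy3 bounds for Etv1 and Kit were at least 2.40-fold and 3.46-fold lower there, with reference channel differences of 0.09 and -0.89. Under rescaling 3 to 5 were lower.

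Fat cell genes differed widely. All 7 adipocyte genes tested were lower in epithelium, against 15.4% of all genes, with a median difference of -2.48, and 6 or 7 were lower without any one array. Of the 7, 4 were measured in both tissues, and the other 3 passed the filter through intact colon, where they are high. Cfd, the adipocyte protease adipsin, read 0.31, -5.20, -2.91, -1.0 and -6.28 in epithelium and -0.24 to 4.01 in intact colon with a median of 3.74 (difference -6.13, SE 1.11, adjusted p = 0.000769). Fabp4, the adipocyte fatty acid-binding protein, read -0.60, -3.01, -2.38, -2.21 and -1.18 against -1.15 to 2.76 with a median of 2.13 (difference -3.60, SE 0.63, adjusted p = 0.000633). Adipoq, the hormone adiponectin, read 0.65, 0.17, -0.56, -0.12 and 0.17 against -0.10 to 3.57 with a median of 3.43 (difference -2.72, SE 0.56, adjusted p = 0.0019). In each case the groups overlapped through a single intact sample, replicate 5, which was at -0.24 for Cfd, -1.15 for Fabp4 and -0.10 for Adipoq. Without that sample the differences were -6.80 for Cfd, -4.18 for Fabp4, -3.30 for Adipoq and -3.10 for Plin1, which coats the lipid droplet and differed by -2.48 with it. Plin1 was well above background on 2 of 5 epithelial arrays and so was not measured there. Retn, resistin (-2.14), and Lep, leptin (-2.06), were measured on no epithelial array and were at least 4.58-fold and 2.84-fold lower on the Cy3 channel. Cidec, a lipid droplet protein (-1.32, adjusted p = 0.0459), kept its call only without intact replicate 5 and lost it without any one of the other 10 arrays (-1.13 to -1.43). The trimming of fat from the pieces cut for microdissection is stated in the methods, and its part in these differences was not tested.

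Connective tissue genes were split. Of 15 fibroblast genes, 5 were lower and 2 higher (over all genes 12.2% higher and 15.4% lower). The median of -0.24 became 0.26 with the Cy3 channel alone (4 higher, 6 lower), -0.53 with normexp background correction (3 and 7) and -0.52 with the image software's processed signals (3 and 6). Lum, the collagen-binding proteoglycan lumican, read -0.89, -1.47, -1.47, -1.70 and -1.27 against 0.31 to 2.124 with a median of 0.99 (difference -2.41, SE 0.28, adjusted p = 2.47e-05). Its relative Dcn, decorin, read -0.40, -0.61, -0.27, -0.67 and -1.14 against 0.61 to 2.03 with a median of 1.48 (difference -2.08, adjusted p = 1.8e-05). Both were measured in epithelium, and neither overlapped. Sparc, a matrix glycoprotein, was lower too (-1.98). In contrast Col3a1, a fibrillar collagen, was higher (1.06, adjusted p = 0.00437), although at 6 weeks it differed by 0.23 (adjusted p = 0.52). Col1a1 (0.41, SE 0.27) and the fibroblast receptor gene Pdgfra (0.26, SE 0.20) were not called. The other lower members were Dpt, dermatopontin (-1.26, not measured in epithelium), and Cd34, a surface sialomucin (-1.02). Without any one array 5 or 6 genes of the list were lower and 1 or 2 higher.

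Matrix genes outside that list gave 5 higher and 4 lower calls among 25, shares near those over all genes (12.2% and 15.4%). Of the 5 genes called higher, 4 were not measured in epithelium, while the 4 lower ones were measured in both tissues. The median of -0.09 became 0.17 with the Cy3 channel alone (5 higher, 7 lower), -0.55 with the image software's processed signals (4 and 9) and -0.34 with normexp background correction (5 and 7). Ogn, osteoglycin (-1.77), and Timp2, an inhibitor of metalloproteinases (-1.66), were lower and measured in both tissues. Fn1, fibronectin (1.99), and Eln, elastin (1.11), were called higher but not measured in epithelium, and Fn1 turned sign with the Cy3 channel alone (-1.81). Col4a1, a basement membrane collagen (-0.64, adjusted p = 0.0313), lost its call in 7 of 11 fits without 1 array, those without epithelium replicate 1, 2 or 5 or intact replicate 1, 2, 3 or 4 (-0.53 to -0.64), and turned sign with the Cy3 channel alone (0.28).

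Of 14 endothelial genes, 3 were higher and 3 lower (over all genes 12.2% higher and 15.4% lower), and 3 to 5 were higher without any one array. The median of 0.17 became -0.11 with the image software's processed signals (5 higher, 4 lower) and 0.48 with the Cy3 channel alone (5 and 3). Emcn, an endothelial sialomucin, was lower (-0.90), while Esam, an endothelial adhesion molecule, was called higher (1.24) with a reference channel 3.98 log2 units higher on the epithelial arrays. Pecam1 (0.52, fold change 1.44, and -0.61 with the Cy3 channel alone), Cdh5 (-0.35) and the growth factor receptor gene Kdr (-0.19, and 1.20 with the Cy3 channel alone) were not called. Of 6 pericyte genes, Pdgfrb, a growth factor receptor (1.25), and Notch3 (1.23) were higher and Kcnj8, a potassium channel (-1.72), and Rgs5 (-0.75, not measured in epithelium) were lower, all with groups that did not overlap. Lyve1, a hyaluronan receptor of lymphatic endothelium, was lower (-1.35, adjusted p = 0.000469), and Prox1 (0.16) and Flt4 (-0.30) were not called. The mesothelial genes Msln (-1.46) and Wt1 (1.08) were called in opposite directions, but neither was measured in epithelium. Wt1 turned sign with the image software's processed signals (-1.46), and Msln did so with the Cy3 channel alone (0.26). Upk3b and Lrrn4 each differed by -0.48 and were not called. With the image software's processed signals 4 of the 5 mesothelial genes were lower and 0 higher, and their median of -0.48 became -1.31.

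Of 8 genes shared by all leukocytes, 1 was lower, against 15.4% of all genes, with a median of -0.13 that became 0.09 with the Cy3 channel alone. It was Cd53 (-0.64), measured on no epithelial array, with a Cy3 bound of at least 2.45-fold lower and a reference channel difference of -0.96. Its call was lost without intact replicate 2 (-0.51). Ptprc, the common leukocyte antigen CD45, read 0.20, -0.31, 0.23, -0.14 and 0.61 in epithelium and -0.06 to 0.64 in intact colon with a median of 0.27 (difference -0.14, SE 0.17, adjusted p = 0.525). The groups overlapped, with epithelium replicates 2 and 4 below every intact sample. Coro1a (0.25) and Laptm5 (-0.29) were not called either.

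Of 13 T cell genes, 1 was called higher and 12 were not called, against 27.6% of all genes called, and 6 were higher and 1 lower with the Cy3 channel alone. The T cell receptor subunit genes Cd3e, Cd3d and Cd3g differed by 0.03, 0.33 and -0.55. Among 7 genes of intraepithelial lymphocytes, which sit between the epithelial cells, Cd7 was higher (0.97, adjusted p = 0.0136) and the cytotoxic granule gene Gzmb lower (-0.73, measured on no epithelial array, with a Cy3 bound of at least 1.07-fold, and lost without intact replicate 5 at -0.56), while Itgae, the integrin that binds E-cadherin, differed by 0.01 with SE 0.17, and Gzma by -0.24.

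Of 6 B cell genes and 6 plasma cell genes, 1 of each was called, against 27.6% of all genes. With the Cy3 channel alone 4 plasma cell genes were higher and 1 lower, with a median of 1.04 in place of 0.03. Cd22, an inhibitory receptor of B cells (0.87), and Pou2af1, a transcriptional coactivator (1.26), were higher in epithelium. Ms4a1 (-0.47) and Cd79a (0.26) were not called, nor were the antibody-secreting cell genes Jchain (-0.11), Mzb1 (0.05) and Tnfrsf17, for which the difference was within 0.01 of 0 and 1.31 with the Cy3 channel alone.

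Of 14 macrophage genes, 3 were lower and 11 were not called, against 15.4% of all genes lower. With the Cy3 channel alone 4 were higher and 7 lower, and with normexp background correction or the image software's processed signals 1 was lower. Cd163, a haemoglobin scavenger receptor (-0.90), Mrc1, the mannose receptor (-0.84, measured on no epithelial array, with a Cy3 bound of at least 2.70-fold and a reference channel difference of -0.59), and the complement gene C1qb (-0.69) were those called, and C1qb turned sign with the image software's processed signals (0.14). Csf1r (-0.28, and 0.90 with the Cy3 channel alone), Adgre1 (-0.17) and Cd68 (-0.38) were not called. Among 8 genes of MHC class II presentation, the chains H2-Eb1 (-1.48, adjusted p = 0.00013) and H2-Aa (-1.21, adjusted p = 0.00159, measured on no epithelial array, with a Cy3 bound of at least 3.15-fold and a reference channel difference of -0.45) were lower without overlap, H2-Ab1 was not called (-0.25, and 2.63 with the Cy3 channel alone) and H2-DMa, which loads peptides onto these chains, was higher (0.95). The eosinophil receptors Siglecf (-1.17) and Ccr3 (-0.72, with a Cy3 bound of at least 1.21-fold) were lower and not measured in epithelium, while the granule protein gene Prg2 was not called (-0.27).

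Of 6 neutrophil genes, 2 were higher and 1 lower, and of 7 mast cell genes 3 were higher, with 1 member of each list measured in both tissues. Over all genes 12.2% were higher and 15.4% lower. Without any one array 2 or 3 neutrophil genes and 1 to 4 mast cell genes were higher. S100a8, a neutrophil calcium-binding protein (1.14), and Cpa3, a mast cell protease (0.62), were measured on no epithelial array. Csf3r was past the adjusted threshold but under the fold threshold (0.40), and S100a9 (0.43) and Cma1 (0.18) were not called. Mcpt4, a mast cell chymase, was measured on 4 of 5 epithelial arrays (0.67, adjusted p = 0.0316) and lost its call without epithelium replicate 1, 2 or 3 or intact replicate 1 or 4 (0.50 to 0.62). Of the red blood cell genes, Hba-a1, a haemoglobin chain, was called higher (1.16, and -2.19 with the Cy3 channel alone), and for Alas2 the tissues had the same mean to within 0.01.

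**Figure D3:**
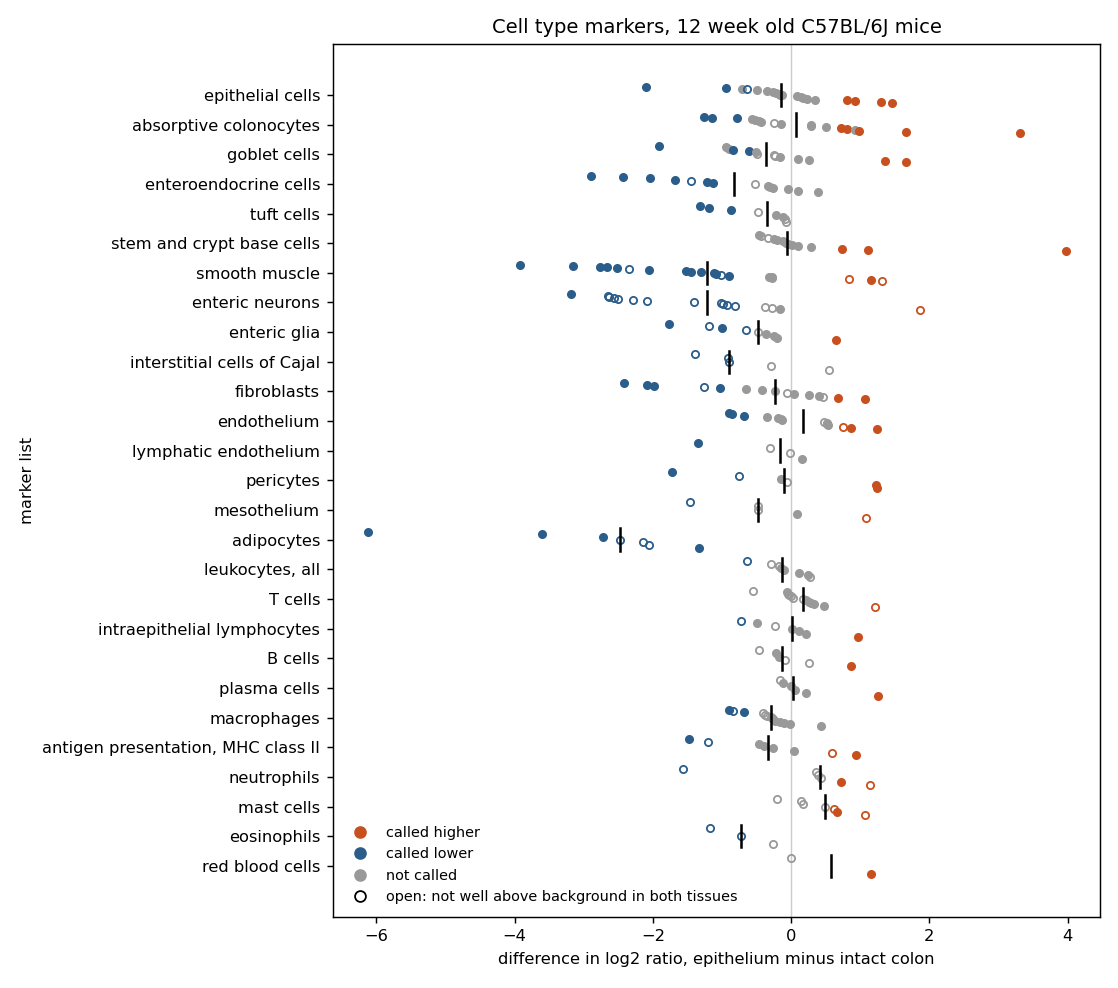
Difference in log2 ratio, epithelium minus intact colon (x axis), of every tested gene of 27 cell type marker lists (y axis); each point is a gene, orange called higher, blue called lower, grey not called, open where the gene was not measured in both tissues, and the bar is the list's median. Adipocyte, smooth muscle and enteric neuron lists have medians of -2.48, -1.21 and -1.21, while the epithelial cell list centres on -0.15 and turns to 0.09 with the image software's processed signals.

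Epithelial markers were measured in both tissues, with 1 exception among 20. Of 20 general epithelial genes, 4 were higher and 3 lower in epithelium, shares of the list near those over all genes, and the median of -0.15 became 0.09 with the image software's processed signals. With the Cy3 channel alone 3 were higher and 9 lower, with a median of -0.50, and without any one array 2 to 5 were lower. Epcam, the epithelial cell adhesion molecule, read -1.25, -0.51, 0.89, 0.66 and 0.28 in epithelium and -0.02 to 0.36 in intact colon with a median of 0.22 (difference -0.16, SE 0.31, adjusted p = 0.704), but was called lower with the Cy3 channel alone (-3.18), with a reference channel difference of -3.04 between the epithelial and the intact arrays. Cdh1, E-cadherin, read 0.25, 0.34, 1.25, 0.93 and 1.01 against -0.02 to 1.24 with a median of 0.56 (difference 0.24, SE 0.23, adjusted p = 0.435), and its value was -4.51 with the Cy3 channel alone, with a reference channel difference of -4.76 between the epithelial and the intact arrays. Epithelium replicates 3 and 4 were the highest for Epcam, and replicates 1 and 2 the lowest for both genes.

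Of the called epithelial genes, Elf3, an epithelial Ets factor, read 2.04, 1.84, 2.81, 2.64 and 1.39 against 0.16 to 0.96 with a median of 0.79 (difference 1.45, SE 0.24, adjusted p = 0.000348). Cdx2, the homeobox factor that sets intestinal identity, read 1.96, 2.07, 2.73, 2.48 and 2.79 against 0.28 to 1.49 with a median of 1.25 (difference 1.30, SE 0.22, adjusted p = 0.000475). Neither overlapped. Vil1, villin of the microvilli, was higher by 0.93 and the tight junction gene Cldn3 by 0.81, and both lost the call with the Cy3 channel alone (0.31 and 0.15). On the other side Lgals4, the intestinal lectin galectin, read -1.22, -1.16, -0.38, -0.62 and -1.09 against 1.00 to 1.38 with a median of 1.25 (difference -2.09, SE 0.16, adjusted p = 9.61e-07, with a second probe at -0.67). Cdx1, the relative of Cdx2, was lower (-0.93, and not called at -0.09 with the image software's processed signals), as was the splicing regulator Esrp1 (-0.64, measured on 1 of 5 epithelial arrays, lost without intact replicate 4 at -0.58). Krt8, an epithelial keratin, differed by -0.71 and missed the threshold (adjusted p = 0.0519), but was called lower with normexp background correction (-0.75), with probes measured in both tissues only (-0.71), with all 8 groups of the series in the fit (-0.71, with or without slide as a random block), with the replicate number as a block (-0.74), and without epithelium replicate 3 or 4 or intact replicate 2 (-0.81 to -0.87).

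**Figure D4:**
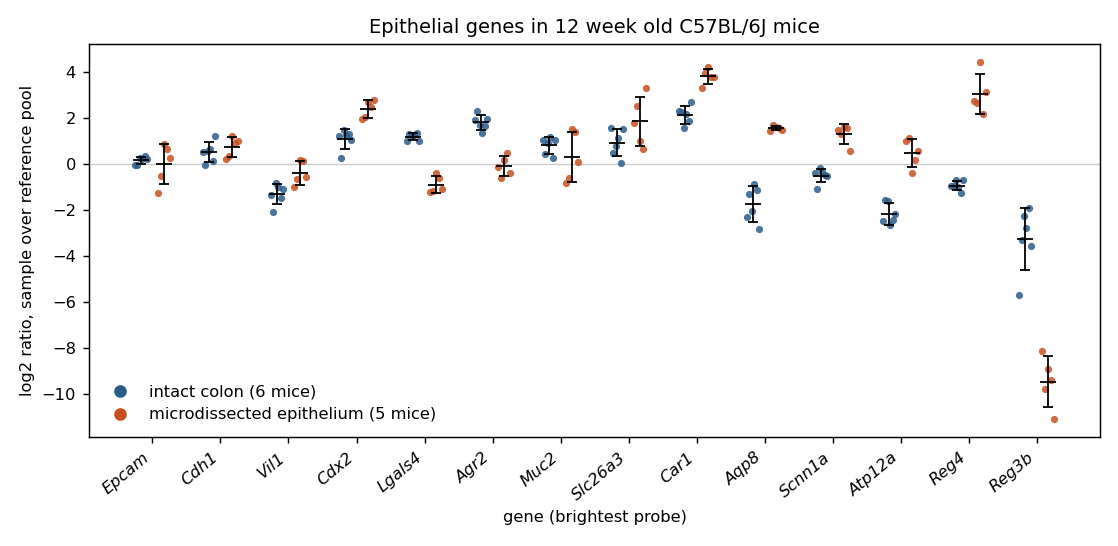
Log2 ratio of sample over reference pool (y axis) for epithelial genes (x axis) in intact colon of 6 mice (blue) and epithelium of 5 mice (orange); points are arrays and bars the mean ± SD. Aqp8, Reg4 and Atp12a lie wholly above the intact samples in epithelium, Lgals4, Agr2 and Reg3b wholly below, and Epcam, Cdh1 and Muc2 overlap.

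Genes of absorption and transport were called in both directions. Over all genes 12.2% were higher and 15.4% lower. Of 18 absorptive colonocyte genes, 5 were higher and 3 lower, with a median of 0.07 that became -0.27 with the Cy3 channel alone (5 higher, 8 lower) and -0.02 with normexp background correction. Of 28 ion and water transport genes, a list that shares some of these, 12 were higher and 4 lower, with a median of 0.51. Of the called genes, 10 of the higher and 1 of the lower ones were measured in both tissues. Under rescaling 11 to 12 were higher and 3 to 10 lower, and without any one array 9 to 13 were higher.

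Aqp8, the water channel of surface colonocytes, read 1.46, 1.72, 1.64, 1.60 and 1.5 in epithelium and -2.83 to -0.86 in intact colon with a median of -1.65 (difference 3.31, SE 0.30, adjusted p = 3.82e-06). The epithelial samples were tightly grouped and 9.94-fold above the intact mean. Atp12a, the colonic proton-potassium pump, read 1.00, 1.13, -0.37, 0.20 and 0.59 against -2.66 to -1.57 with a median of -2.31 (difference 2.67, SE 0.28, adjusted p = 1.21e-05). Scnn1a, a subunit of the epithelial sodium channel, read 1.48, 1.32, 1.64, 1.57 and 0.59 against -1.06 to -0.18 with a median of -0.43 (difference 1.81, SE 0.20, adjusted p = 1.66e-05). None of these overlapped. Car1, the carbonic anhydrase of colonocytes, read 3.33, 3.97, 4.23, 3.78 and 3.81 against 1.59 to 2.70 with a median of 2.23 (difference 1.67, SE 0.20, adjusted p = 3.11e-05), but turned sign with the Cy3 channel alone (-0.95). Also higher were the water and glycerol channel Aqp3 (1.58, measured on 2 of 5 epithelial arrays), the goblet cell bicarbonate channel Best2 (1.31), the chloride channel Clcn2 (1.20) and Slc16a1, which carries short-chain fatty acids such as butyrate (0.92, adjusted p = 0.0117).

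Several major transporters did not pass. Slc26a3, the chloride-bicarbonate exchanger of the surface, read 1.79, 2.53, 1.00, 0.68 and 3.33 against 0.07 to 1.60 with a median of 0.97 (difference 0.93, SE 0.43, adjusted p = 0.101), and Cftr differed by 0.08 with SE 0.25. Lower in epithelium were Kcne3, a regulator of basolateral potassium channels (-0.86, and 0.01 with the image software's processed signals), and the chloride loader Slc12a2 (-0.68), which was not measured in epithelium (Cy3 bound at least 13.5-fold lower, reference channel difference -3.19) and lost its call without intact replicate 2 or 6 (-0.57 for each). Of the colonocyte genes, Plac8 (-1.25), Ceacam20, an adhesion molecule of the brush border (-1.14), and Guca2b, the peptide uroguanylin (-0.78), were lower, and both Plac8 (0.15) and Guca2b (0.87) turned sign with the Cy3 channel alone.

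Of 24 junction genes, 4 were higher and 3 lower, shares near those over all genes (12.2% and 15.4%), with a median of 0.20 that became -0.45 with the Cy3 channel alone, where 5 were higher and 11 lower. Dsp, desmoplakin of the desmosome (1.32, with 4 probes from -0.29 to 1.32), Pkp3, a desmosomal plaque protein (0.83, and -0.52 with the Cy3 channel alone), and Cldn4 (0.79) were higher. Cldn8, a sealing claudin of the distal gut (-1.32), and F11r, junctional adhesion molecule A (-1.18), were lower without overlap, and Ocln, occludin, was not called (-0.13).

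Of 14 goblet cell genes, 2 were higher and 3 lower, shares near those over all genes (12.2% and 15.4%), with a median of -0.37 that became 0.10 with the image software's processed signals. The Cy3 channel alone gave 6 lower and a median of -0.65, and without any one array 2 to 5 were lower. Of 19 genes of mucins and their O-glycosylation, 7 were lower (3 of them measured in both tissues) and 12 were not called, with a median of -0.27. The Cy3 channel alone gave 12 lower and 2 higher, with a median of -1.15. Up to 4 were called higher under rescaling and up to 2 without any one array.

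Muc2, the main secreted gel mucin, read -0.83, -0.59, 1.52, 1.41 and 0.08 in epithelium and 0.28 to 1.17 in intact colon with a median of 0.98 (difference -0.51, SE 0.40, adjusted p = 0.325), but was called lower with the Cy3 channel alone (-2.09). Replicates 3 and 4 lay above every intact sample and replicates 1, 2 and 5 below them. Agr2, the disulfide isomerase needed for mucin folding, read -0.12, -0.60, 0.20, 0.50 and -0.37 against 1.35 to 2.31 with a median of 1.83 (difference -1.91, SE 0.21, adjusted p = 1.53e-05). Gcnt3, which branches mucin O-glycans, was not measured in epithelium and differed by -1.87, with a Cy3 bound of at least 6.49-fold lower there and a reference channel difference of -1.21. Its relative Gcnt1 (-1.61, with 3 probes from -1.61 to 0.74), the membrane mucin Muc13 (-1.46) and C1galt1, which extends the core sugar (-1.22, measured on 2 of 5 epithelial arrays), were also lower. Sytl2, of granule exocytosis, was lower (-0.83), whereas Spink4, a goblet cell peptide, was higher (1.36, without overlap). Clca1 (-0.94, adjusted p = 0.0801) and Muc3 (0.58) were not called, and Tff3, trefoil factor (-0.60), lost its call without epithelium replicate 2 or 5 or intact replicate 1 or 6 (-0.50 to -0.58) and turned sign with the Cy3 channel alone (1.17).

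Of 23 defence genes, 8 were lower and 3 higher (over all genes 12.2% higher and 15.4% lower). The median of -0.38 became -0.80 with the image software's processed signals (7 lower, 3 higher) and -0.73 with the Cy3 channel alone (12 and 5). Reg3b, an antibacterial C-type lectin, read -8.13, -9.77, -8.92, -9.38 and -11.10 in epithelium and -5.68 to -1.89 in intact colon with a median of -3.03 (difference -6.22, SE 0.62, adjusted p = 8.54e-06). It was well above background on no epithelial array, and the bound on the Cy3 channel was at least 88.4-fold lower there. Reg3g, its relative, read -7.86, -8.13, -7.18, -7.77 and -9.15 against -5.16 to -2.79 with a median of -3.66 (difference -4.15, SE 0.42, adjusted p = 9.06e-06), with 1 epithelial array above background. The reference channel differed between the sets by -0.90 (log2) for Reg3b and by 0.02 for Reg3g.

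Duox2, the epithelial hydrogen peroxide-producing oxidase, read 0.82, 0.22, 1.07, 0.77 and 0.59 against 2.28 to 5.26 with a median of 3.45 (difference -2.86, adjusted p = 0.000255). Lypd8, which binds flagellated bacteria, was lower (-2.28 on its brightest probe and -0.32 on its other one). Lyz1, a lysozyme, was lower (-1.54). The higher calls were Retnlb, a goblet cell resistin-like protein (1.66, adjusted p = 0.00819), the chemokine Ccl28 (0.90) and Itln1, an intelectin (1.34), which was not measured in epithelium and turned sign with the Cy3 channel alone (-1.36) and the image software's processed signals (-0.96). Pigr, the receptor that carries IgA into the lumen, was not called (0.45, and -3.35 with the Cy3 channel alone).

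Hormone genes were lower in the epithelium samples where they were called. Of 14 enteroendocrine genes, 7 were lower and 7 were not called (over all genes 12.2% higher and 15.4% lower), with a median of -0.82. Under rescaling 5 to 8 were lower, up to 5 were called higher, and the medians lay from -1.13 to -0.45. Cpe, the prohormone-processing carboxypeptidase, read -1.64, -2.12, -1.81, -1.91 and -2.16 against 0.72 to 1.11 with a median of 1.05 (difference -2.90, SE 0.13, adjusted p = 4.23e-08), although a second probe gave -0.60. Nts, neurotensin, read 0.14, 0.02, 0.53, 0.81 and 0.94 against 2.19 to 3.34 with a median of 2.92 (difference -2.43, adjusted p = 3.54e-06). Cpe is also expressed in neurons. Tph1, which makes serotonin in enterochromaffin cells, was lower (-2.04), as were Chgb, a granin of secretory granules (-1.68), Insl5, a hormone of colonic L cells (-1.45, measured on 2 of 5 epithelial arrays), and Pyy, peptide YY (-1.22). Chga, chromogranin A, read 1.11, 0.29, 2.11, 2.09 and -0.07 against 1.55 to 2.75 with a median of 2.21 (difference -1.13, adjusted p = 0.0312) and lost its call without epithelium replicate 1, 2 or 5 or intact replicate 1, 4 or 6 (-0.83 to -1.13). Of 8 tuft cell genes, 3 were lower (1 with the Cy3 channel alone, with a median near 0 in place of -0.34), among them the kinase gene Dclk1 (-1.19) and Alox5ap of leukotriene synthesis (-0.87). Trpm5, the taste transduction channel, was not called (-0.12, and 1.70 with the image software's processed signals), nor was Gfi1b (-0.08).

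The list of stem and crypt base genes was led by a single member. Reg4, a lectin-like secreted protein of deep crypt cells, read 2.77, 2.67, 4.46, 2.17 and 3.16 in epithelium and -1.25 to -0.70 in intact colon with a median of -0.95 (difference 3.97, SE 0.31, adjusted p = 1.16e-06). It was 15.7-fold higher. Of the 14 stem and crypt base genes of its list, 3 were higher and 11 were not called (over all genes 12.2% higher and 15.4% lower). The list's median of -0.05 became 0.24 with the image software's processed signals and 0.01 with normexp background correction. The Cy3 channel alone gave 3 higher and 5 lower. Smoc2 (1.11) and the growth regulator Myc (0.73, and -0.30 with the Cy3 channel alone) were the other members called. Lgr5, the stem cell receptor for R-spondin, read 0.46, -0.06, -0.01, -0.23 and 0.46 against -0.08 to 1.21 with a median of 0.01 (difference -0.12, SE 0.23), and the Wnt targets Axin2 (0.10) and Ascl2 (-0.04, and 1.23 with the Cy3 channel alone) were not called.

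Proliferation genes were higher where they were called. Of 23 cell cycle genes, 9 were higher and 14 were not called (over all genes 12.2% higher and 15.4% lower), with a median of 0.51, and 9 to 15 were higher under rescaling, with at most 2 lower, and 6 to 13 without any one array. The members called were Mcm3, Mcm4 and Mcm7 of the replicative helicase (1.20, 0.88 and 0.77), the mitotic kinase gene Plk1 (1.01), Mki67, the proliferation marker Ki-67 (0.94), and 4 more with smaller differences. Mki67 read 0.44, 0.42, 0.50, -0.01 and 0.50 in epithelium and -0.77 to -0.27 in intact colon with a median of -0.64, without overlap (adjusted p = 0.00014). Top2a passed the adjusted threshold with a fold change of 1.45, under the threshold for a call, and Pcna differed by -0.65 and was not called (adjusted p = 0.0718).

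Mitochondrial genes were described by pathway. Of 28 citric acid cycle and respiratory chain genes, 12 were lower and 1 higher (over all genes 12.2% higher and 15.4% lower). The median of -0.43 became -0.24 with the Cy3 channel alone (11 lower, 5 higher). A list of reference genes, often taken as constant, had 6 of 14 lower and a median of -0.64, and their part in this result was not tested. Mdh2, malate dehydrogenase, read -3.12, -3.36, -2.33, -2.68 and -2.67 against -1.56 to -0.84 with a median of -1.03 (difference -1.74, SE 0.18, adjusted p = 1.24e-05). Atp5c1, of the ATP synthase (-1.66), and the cytochrome oxidase subunits Cox5a (-1.62) and Cox4i1 (-1.01) were lower without overlap, while Ogdh, of the oxoglutarate dehydrogenase complex, was higher (1.24, and -0.32 with the Cy3 channel alone). Cs (-0.31) and Ndufs1 (-0.20) were not called.

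In fatty acid oxidation and ketogenesis, through which colonocytes burn butyrate, 2 of 22 genes were higher and 2 lower, smaller shares than over all genes (12.2% and 15.4%). Without any one array 2 or 3 were higher and 1 to 3 lower. The median of 0.09 became -0.10 with the Cy3 channel alone (7 higher, 6 lower) and -0.03 with normexp background correction. Bdh1, which makes the ketone body hydroxybutyrate, read 1.51, 1.86, 1.5, 1.47 and 1.1 against -0.93 to 0.02 with a median of -0.17 (difference 1.81, SE 0.19, adjusted p = 9.81e-06). Hadha, of the trifunctional protein, was higher (0.99). Etfb, an electron carrier (-0.70, and 0.67 with the Cy3 channel alone), and Hadh (-0.63, lost without epithelium replicate 5 or intact replicate 4 at -0.48 and -0.54) were lower, and Cpt1a (0.67) and Acadm (-0.52) were not called.

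Genes for foreign compounds and their export gave 6 higher and 5 lower calls of 26 (over all genes 12.2% higher and 15.4% lower), with a median of 0.22 that became -0.42 with the Cy3 channel alone (7 higher, 10 lower). Abcc3, a basolateral exporter of conjugates, read 2.80, 3.18, 2.77, 3.00 and 2.59 against 0.36 to 1.58 with a median of 1.18 (difference 1.79, SE 0.19, adjusted p = 1.52e-05). The xenobiotic receptor Nr1i2 (1.23) and Cyp3a13 (0.83) were also higher. Abcb1a, the drug exporter P-glycoprotein, was lower (-2.0, adjusted p = 1.1e-06, measured on 1 of 5 epithelial arrays), as was Adh1, alcohol dehydrogenase (-2.18, adjusted p = 4.37e-05). Abcg2 (0.69) lost its call in 7 of 11 fits without 1 array, those without epithelium replicate 2, 3 or 5 or intact replicate 1, 3, 5 or 6 (0.46 to 0.69).

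Of the signalling lists, epithelium measured 40% of the tested Hedgehog genes and 23.5% of the Wnt genes, against 54.9% of all genes tested, and 60 to 62.5% of the BMP, Notch and Eph genes. Hedgehog ligands come from the epithelium and act on the mesenchyme: Ihh (0.39, SE 0.20) and Shh (-0.36) were not called, nor was their receptor Ptch1 (0.05), while the transducer Smo (-1.04, with a second probe at 0.37) and the mesenchymal target Foxf2 (-1.62) were lower, as 3 of the 10 genes were (3 to 6 under rescaling, with up to 2 higher). Of 17 Wnt genes, 4 were measured in epithelium, and 5 were called higher and 3 lower (over all genes 12.2% higher and 15.4% lower). Of the called genes only 1, a higher one, was measured in both tissues. The median of 0.12 became -0.60 with the image software's processed signals (5 higher, 7 lower) and -0.23 with normexp background correction (4 and 5). The stem cell niche factor Rspo1 was lower (-1.81, with 1 epithelial array above background), Wnt4 was called higher (2.20) with 1 epithelial array above background, and Wnt6 (0.48) and Wnt9b (0.12) were not called.

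Of 16 BMP pathway genes, 3 were higher and 6 lower (over all genes 12.2% higher and 15.4% lower), and under rescaling 3 to 5 were higher and 4 to 6 lower. Of the called genes, 2 of the higher and 3 of the lower ones were measured in both tissues. The secreted antagonist Chrd (1.56) and the inhibitory Smad gene Smad6 (1.20) were higher. Bmp2 was called higher (2.49) but measured on no epithelial array, at -2.96 to -2.06 in intact colon, and turned sign with the Cy3 channel alone (-0.82), and Bmp4 was not called (0.04). Bmp5 (-0.60) lost its call without epithelium replicate 3 or 4 or intact replicate 2 or 6 (-0.46 to -0.58) and turned sign with the Cy3 channel alone (1.4). Of 10 Notch genes, the receptor Notch2 was lower (-1.17, and 0.01 with the Cy3 channel alone), Jag1 (-0.38) and Dll4 (0.20) were not called, and Dll1 (0.68), which was not measured in epithelium, lost its call without epithelium replicate 3, 4 or 5 or any of intact replicates 1 to 5 (0.56 to 0.69) and turned sign with the Cy3 channel alone (-0.99). Of 10 Eph and ephrin genes, which position cells along the crypt, 3 were higher, against 12.2% of all genes, among them Efnb1 (0.69) and Ephb4 (0.70). The median of 0.24 became -0.26 with the Cy3 channel alone (3 higher, 4 lower). Efna1 (-0.51) and Efnb2 (0.14) were not called.

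Genes often taken as constant were also called. Of 14 reference genes, 6 were lower and 1 higher (over all genes 12.2% higher and 15.4% lower), with a median of -0.64. Rplp0, a ribosomal protein, read -1.94, -2.37, -1.48, -1.63 and -1.63 against -0.20 to 0.26 with a median of 0.06 (difference -1.84, adjusted p = 2.33e-06, with 3 probes from -1.84 to 0.15). Actb, cytoplasmic actin (0.68), lost its call in 9 of 11 fits, all but those without epithelium replicate 1 or 2 (0.51 to 0.72 in those 9), and turned sign with the Cy3 channel alone (-2.06). Gapdh differed by -0.84 (adjusted p = 0.147), with epithelium replicates 3 and 4 at -0.28 and -0.74 and the other replicates at -3.02, -2.45 and -2.70. Canx, calnexin, used as the reference gene for PCR, read 0.09, -0.35, -0.13, -0.08 and -0.21 against -0.31 to 0.08 with a median of -0.17 (difference 0.02, SE 0.11), and its 3 probes ranged from -0.68 to 0.44.

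Of 10 genes that respond to handling, Fos, an immediate early transcription factor, was higher (1.59, adjusted p = 0.0206, and 1.26 with adjusted p = 0.0514 without epithelium replicate 3), as was Ier2 (0.82, and -0.13 with the Cy3 channel alone), while Jun (0.41) and Egr1 (0.17) were not called. Among 6 genes also assayed by PCR for these mice, Tap2, an antigen peptide transporter, was higher (1.32) with a reference channel 2.96 log2 units higher on the epithelial arrays, and the calcium-binding protein gene S100g was higher (0.74, adjusted p = 0.0256) but lost its call without epithelium replicate 1, 2 or 3 or intact replicate 1 or 5 (0.58 to 0.72). Ppara (-0.30), Il18 (0.38) and Mmp3 (-0.34) were not called.

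Among genes measured in both tissues whose groups did not overlap, which leaves out Cfd and Fabp4, the largest differences included genes of no marker list. Higher in epithelium were Rgn, the calcium-binding regucalcin, at -2.45, -2.39, -1.64, -1.06 and -1.56 against -6.37 to -5.34 with a median of -6.00 (difference 4.13, SE 0.27, adjusted p = 3.2e-07), and Mpst, a sulfurtransferase, at 3.75, 4.47, 3.69, 3.23 and 4.14 against -0.80 to 0.37 with a median of -0.07 (difference 4.01, SE 0.26, adjusted p = 3.32e-07). Their groups were far apart relative to the spread of either tissue. Reg4 and Aqp8 followed these, with Fetub, a fetuin (3.65), the nuclear lamina gene Lmnb1 (3.41), Vapb (3.31, with 3 probes from -0.17 to 3.31), the sugar-phosphate exchanger gene Slc37a2 (3.18) and Stac3 (3.08). On the low side were Cnn1, Uchl1 and Tagln, the unnamed transcript ENSMUST00000082405 (-3.83), Slc25a4, an ATP-ADP carrier of muscle mitochondria (-3.28, with a second probe at -0.35), Agmat, agmatinase (-3.09), Evx2, a homeobox gene (-3.07), the sequences CF584628 (-3.03) and A_51_P281057 (-2.97), and Ckb, brain creatine kinase (-2.91, with a second probe at -0.33).

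Genes at the floor on every array of one tissue give a bound. There were 5855 such genes in epithelium, 3198 of which gave a fold above 1, and 85 in intact colon. The largest bounds on the Cy3 channel were for Slc4a7, a sodium-bicarbonate transporter, at least 301-fold higher in intact colon, Reg3b, the sequence NAP027398-1 (64.6-fold), the ribosomal gene Rpl4 (57.5-fold) and Alb, albumin (56.1-fold). For Slc4a7 and Rpl4, however, the Cy5 reference channel also differed by -6.42 and -6.82 log2 units, epithelial minus intact arrays, and the ratio differed by -1.81 and 0.65. The Rpl4 call (adjusted p = 0.00235) ended without intact replicate 6 (0.58) and its sign turned with the Cy3 channel alone (-6.17). Alb read -9.24, -7.88, -9.23, -8.29 and -8.45 against -4.72 to -3.42 with a median of -4.30 (difference -4.50, adjusted p = 3.2e-07), with a reference channel difference of -1.58. In the other direction the bounds were 51.9-fold for Mgat4e, 50.2-fold for the sequence TC1470100, 32.7-fold for Glra2, 31.7-fold for A530064D06Rik and 31.1-fold for Evx1, each with a reference channel 4.51 to 5.45 log2 units higher on the epithelial arrays, and of these only TC1470100 was called on the ratio (1.28).

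At 6 weeks of age the same tissues had been taken from other C57BL/6J mice, 6 arrays each, with the same division into array sets. Of the epithelial arrays of that age, replicate 1 had 12.4% of spots well above background in Cy3, against 25.3 to 36.8% on the other 5. There 5506 genes were called (28.7%), 2412 higher and 3094 lower in epithelium. The 6 week and 12 week comparisons share no sample, but they share whatever the array sets contribute. They also differ in time since inoculation, because the paper states that mice were inoculated at about 6 weeks of age. The younger mice were sampled within days of it, so age cannot be told apart from that time. Of the 5292 genes called at 12 weeks, 5212 had the same sign at 6 weeks, and 3909 were called at both ages. Among the genes described above, at 6 weeks Cnn1 differed by -3.68, Uchl1 by -3.32, Tagln by -3.10, Reg3b by -4.98, Lgals4 by -2.15, Aqp8 by 2.48, Reg4 by 3.57 and Mpst by 4.08.

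A tissue by age term compares the differences at both ages, so that an offset of the array set shared by both ages cancels in it. Time since inoculation goes with age and does not cancel. No gene of 19180 passed it (0%) in the limma fit, where the smallest adjusted p was 0.269 and 1204 genes had an unadjusted p under 0.05. Other settings gave 0 to 8 genes. Of the adipocyte genes, Adipoq differed by 1.35 at 6 weeks (adjusted p = 0.256), or 0.55 (adjusted p = 0.612) without epithelium replicate 1 of that age, Plin1 by 0.38, Cidec by 0.56, Lep by 0.21 and Retn by -0.03, and none of these was called at that age. Cfd (-4.67, adjusted p = 0.00353) and Fabp4 (-1.95, adjusted p = 0.016) were lower at 6 weeks as well. The difference between ages was -4.07 for Adipoq (-3.27 without that array), -2.85 for Plin1, -2.27 for Lep, -2.11 for Retn, -1.88 for Cidec, -1.65 for Fabp4 and -1.45 for Cfd, beside -1.61 for the glial gene S100b and 1.39 for Retnlb, and none of these passed the term (adjusted p = 0.464 to 0.907). Without intact replicate 5, the sample low in adipocyte genes, 8 genes passed, named here after their values were seen and all with a lower difference at 12 weeks, and Lep was among them (-2.68, adjusted p = 6.61e-05), with Nat8l (-2.33), the glutamate transporter gene Slc1a3 (-1.97), the natriuretic peptide receptor gene Npr3 (-1.80), A530053G22Rik (-1.49), Timp4 (-1.48), BC034902 (-1.47) and Zfp449 (-0.77).

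**Figure D5:**
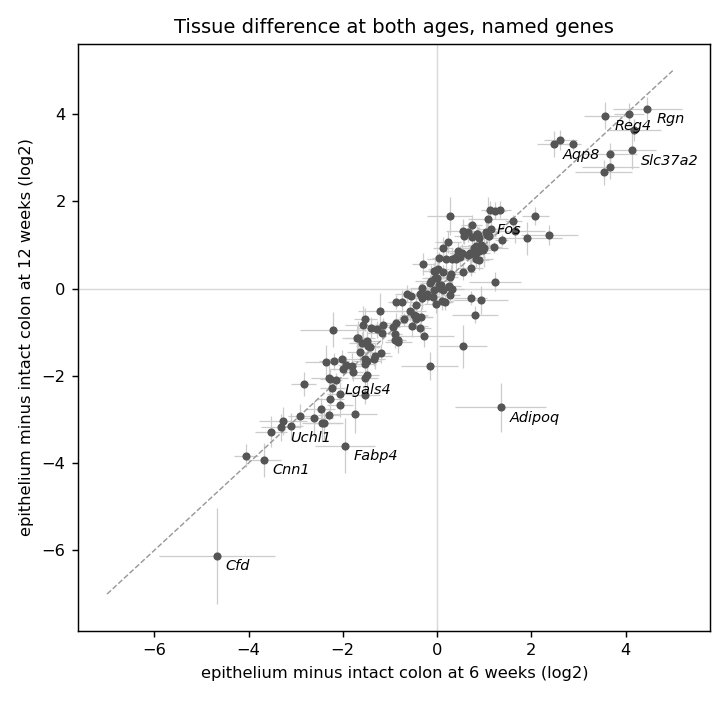
Difference in log2 ratio, epithelium minus intact colon, of the named genes at 6 weeks (x axis) and at 12 weeks (y axis), with bars of ± SE and the dashed line of equal differences. Most genes lie near the line, such as Cnn1 at -3.68 and -3.92, and the adipocyte gene Adipoq lies far below it, at 1.35 (0.55 without epithelium replicate 1 of 6 weeks) and -2.72.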

How the data were processed

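The authors hybridised each sample (Cy3) with a common reference pool (Cy5) on Agilent arrays, normalised the spot intensities by global loess without background correction with limma in R (2.14.1 in the submitters' processing notes), and deposited log2 ratios of Cy5 over Cy3, whose sign was turned here to give sample over reference. The deposited scanner files, with their intensity values and flags, gave the detection calls, controls and single channels. Probes well above background in Cy3 on at least 50% of the arrays of either tissue (28249) were tested with limma 3.58.1 in R 4.3.3, two-sided, with Benjamini-Hochberg adjustment over all of them and no covariates. A gene is represented by its brightest probe in Cy3. Adjusted p-values set the difference between the groups, which holds tissue and array set together, against the spread between samples within a group. The number of arrays limits the precision.

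Members and the 44 gene lists were chosen with earlier results of these data known. Genes were named by rule: the first 3 tested members of each list, the 10 largest called differences in each direction among genes measured in both tissues without overlap, the 5 largest bounds and the 5 largest called tissue by age terms in each direction, and the genes assayed by PCR. Other list members in the text were chosen after their values were seen. Some genes that the rule names are not reported here. Bounds compare Cy3 signals after loess and Aquantile normalization, taking for the dim tissue the higher of the lowest signal well above background and the probe's own, and without dye swaps they are open to dye bias. Replicate numbers were not taken to pair the samples. Deviations of same-numbered samples correlated at -0.10 to 0.14 across tissues, and those of the best-matching samples at 0.10 to 0.23. With all of these low, the check cannot show whether same-numbered samples share a mouse. The fit was tested on simulated data with 200 changed genes. Alternatives covered background correction, normalization, filters, array weights, slide and replicate blocks and leaving out each array. Promoters came from RefSeq tables.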

Additional observations from a re-analysis of the deposited data

Results flagged for a closer look

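In 452 sets of 5 or 6 arrays, 1 gene in 1 tissue each, Dixon's test at the 95% level marked 36 single arrays as standing apart from the rest of their group, where chance marks about 1 in 20. No explanation was tested for any of them, and all values are log2 ratios of sample over reference.

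Of the 7 adipocyte genes, 6 set the same intact array apart: intact replicate 5 read -0.10 for Adipoq, -0.72 for Plin1, -1.15 for Fabp4, -0.24 for Cfd, 0.034 for Cidec and -0.17 for Retn, with the next lowest intact arrays at 2.85, 2.58, 1.91, 3.61, 2.17 and 2.22. The same array was highest among intact samples for Gzmb (-0.84) and lowest for Notch2 (-0.38). Intact replicate 6 was lowest for Des (-2.46), H2-Ab1 (-0.29) and Ckb (-0.094) and highest for Cftr (1.60), Agmat (1.33), Dll1 (-0.23) and Ndufs1 (-0.54). Intact replicate 2 was lowest for Cdx2 (0.28), Cldn3 (0.55), Ihh (-0.12), Cox5a (-0.57) and Ier2 (-0.78). Intact replicate 1 was highest for Lgr5 (1.21) and lowest for Mmp3 (-0.35), and intact replicate 3 was lowest for Snap25 (1.72) and Glra2 (-0.48).

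In epithelium, replicate 1 was highest for Myl9 (0.48) and Plin1 (0.77) and lowest for Nr1i2 (0.36). Replicate 5 was lowest for Actg2 (-0.45), Ano1 (-2.37), H2-Aa (-1.66), Hba-a1 (-1.46) and Wnt6 (-2.29) and highest for Plac8 (0.061). Replicate 4 was highest for Insl5 (-1.01) and lowest for Mki67 (-0.0074), and replicate 2 was lowest for Mrc1 (-0.61).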

How the results depend on the processing

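Of the 19180 genes, 5292 were called at 12 weeks (2342 higher, 2950 lower). With the Cy3 channel alone the counts were 10827 (5514 and 5313), and with probes measured in both tissues only, of 10475 genes, 3034 (1446 and 1588). Requiring the higher tissue to be measured, chosen after seeing the data, gave 4469 (1488 and 2981). Leaving out each array gave 4908 to 5478 (2204 to 2452 higher, 2649 to 3064 lower). With the replicate number as a block there were 5510 calls (2452 and 3058), and 6 named genes lost their call. Whether the numbers pair the samples is not known. The tissue by age term gave 0 genes, 2 with array weights (2 lower), 7 with all 8 groups and slide as a random block together (3 higher, 4 lower; all 8 groups alone was not run for this term), and 0 to 8 without any one array, 8 being without intact replicate 5 (8 lower). The cause was not tested in any case.

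Signs turned for named genes. With the image software's processed signals the values were Trpm5 1.70, Des -0.18, Wt1 -1.46, C1qb 0.14, Kcne3 0.0062 and Itln1 -0.96. With the Cy3 channel alone, where the reference does not offset the array sets, they were Cdh1 -4.51, Car1 -0.95, Tff3 1.17, Ascl2 1.23, Des -3.83, S100b 3.92, Pecam1 -0.61, Kdr 1.20, Msln 0.26, Tnfrsf17 1.31, Csf1r 0.90, H2-Ab1 2.63, Hba-a1 -2.19, Pigr -3.35, Col4a1 0.28, Fn1 -1.81, Bmp2 -0.82, Bmp5 1.4, Dll1 -0.99, Actb -2.06, Rpl4 -6.17, Hand2 -0.48, Guca2b 0.87, Plac8 0.15, Myc -0.30, Ogdh -0.32, Pkp3 -0.52, Itln1 -1.36, Etfb 0.67, Notch2 0.010 and Ier2 -0.13. Of 168 called named genes, 148 kept their call without any one array.

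Other calls of genes in the text also ended or were gained, with no change of sign. Calls ended with the Cy3 channel alone for Vil1 0.31, Cldn3 0.15, Chga -0.52, Pyy -0.38, Dclk1 -0.19, Gfap -0.28, Gzmb -0.10, Siglecf -0.19, Lypd8 -0.40, Cox4i1 -0.26, Abcg2 0.35, Eln 0.53, Sytl2 -0.30, Smoc2 0.44, Plk1 0.56, Hspb6 0.11, Col3a1 0.50, Wt1 0.27, Cidec -0.86, H2-DMa 0.40, Cldn8 -0.39, Slc16a1 0.19 and Smad6 0.45. With the image software's processed signals they ended for Tff3 -0.20, Dclk1 -0.67, Mcpt4 0.72, Hba-a1 0.58, Cox4i1 -0.55, Abcg2 0.73, Bmp5 -0.19, Dll1 0.19, Slc4a7 -1.35, Cdx1 -0.09, Esrp1 -0.51, Plac8 -0.85, Sytl2 -0.64, Synpo2 1.06, Cd163 -0.10, Aqp3 0.33, Duox2 -1.35 and Etfb -0.37. With normexp background correction they ended for Des 0.70, Gfap -0.45, Mcpt4 0.51, Abcg2 0.64, Bmp5 -0.34, Dll1 0.24, Esrp1 -0.56, Synpo2 1.01, Wt1 0.03, Cd53 -0.54, Cd163 -0.58, C1qb -0.46, Kcne3 -0.58 and Itln1 0.64, and with array weights for Tff3 -0.47, Chga -0.74, Abcg2 0.51, Col4a1 -0.56, Efnb1 0.56, Kcne3 -0.54 and Etfb -0.58. With all 8 groups in the fit they ended for Myh11, Mcpt4, Abcg2, Bmp5, Efnb1, S100g, Synpo2 and Cidec, whose differences stay the same by construction. Recomputed and median spot intensities each ended the calls of Cidec, Tff3 and Etfb.

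The Cy3 channel alone added calls for Epcam -3.18, Actg2 -4.31, Muc2 -2.09, Ano1 -1.26, Slc26a3 3.12, Pdgfra 0.84, Laptm5 -1.39, Cd3d 1.65, Cd3g -1.15, Jchain -1.81, Cd68 -0.79, Ocln -1.28, Cftr 0.68, Acadm -2.45, Ndufs1 -0.87, Pcna -1.11, Ihh 1.61, Ptch1 2.66, Wnt6 1.12, Jag1 -1.01, Efna1 -2.70, Gapdh -0.74, Jun 1.08, Egr1 1.07, Mgat4e 5.89 and Glra2 5.39. The processed signals added Cdh1 1.27, Ano1 -2.70, Pecam1 0.84, Cdh5 -1.18, Cd3d 0.78, Muc3 1.04, Top2a 0.98, Ihh 0.78, Shh -1.19 and Mmp3 -1.29, normexp added Ano1 -0.95, Pecam1 0.65, Cdh5 -0.81, Acadm -0.68, Top2a 0.60 and Krt8 -0.75, and array weights added H2-Ab1 -0.72, Cpt1a 1.00, Wnt6 0.71 and Efna1 -0.62. Leaving out an array added Cpt1a (0.97, without epithelium replicate 1), Pcna (-0.91), Gapdh (-1.23) and Mgat4e (0.65) without epithelium replicate 3, Slc26a3 (1.22) without epithelium replicate 4, Wnt6 (0.69) without epithelium replicate 5, Cd3g (-0.73) and Efna1 (-0.62) without intact replicate 3, Pigr (0.60) without intact replicate 4 and Muc3 (0.72) without intact replicate 6. It also added Acadm (-0.65 and -0.63) without epithelium replicate 3 or 5, Glra2 (0.93 and 0.87) without epithelium replicate 3 or 4, and Clca1 (-1.15 and -1.14) without epithelium replicate 3 or 4 and -1.14 without intact replicate 5.

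Signal over background limits the comparison: the floor, the amplification, the extraction and the array set all go with the tissue and cannot be told apart from it. Where sample and reference are both near the floor the ratio is near 0, and where only the sample is, the ratio gives a bound. Of 6422 genes with several probes, 48 had probes called in opposite directions. Lamina propria taken along with the epithelium was not measured separately.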
